A study of Mus musculus with 46 samples.

Results

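The loci described here were 3046 stretches of mouse liver chromatin that carried acetylated histone H3 lysine 27 (H3K27ac) in all 6 livers profiled, lay away from promoters, and overlapped no binding peak of HNF4a or C/EBPa. H3K27ac peaks of the 6 samples were merged wherever they shared a base, which gave 62774 loci, and 29890 of them held a peak in all 6 samples. Of these, 17230 lay over 5 kb from every transcription start site (TSS) of the RNA counts table, and 17109 were left once the 500 loci with the largest mean covered length had been set aside. The loci were then selected on measured values: 3046 of the 17109 (17.8%, and 4.85% of all merged loci) shared no base with a peak of any of 4 HNF4a and 4 C/EBPa lists, and the other 14063 held at least 1 factor peak and served as the comparison set. The presence of H3K27ac and the absence of the factors are therefore the rule and no finding.

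All samples were whole liver of male C57BL/6 mice that arrived at 5 weeks of age and were then kept for up to 20 weeks on 1 of 2 purified diets. The LD group (labelled high fat diet) received D12492, with 60% of its calories from lipid. The CD group (labelled low fat diet) received D12450B, with 70% of its calories from carbohydrate. H3K27ac was profiled by ChIP-seq in 3 samples per diet, HNF4a and C/EBPa in 2 per diet each, promoter contacts by promoter capture Hi-C and domains by Hi-C in 2 per diet each, and RNA by RNA-seq in 5 mice per diet. No mouse was on plain chow at the end, so each comparison sets one purified diet against the other.

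H3K27ac marks active enhancers and promoters, and is laid down by the acetyltransferases p300 and CBP. HNF4a, a nuclear receptor, and C/EBPa, a basic leucine zipper factor, are master regulators of the hepatocyte and occupy a large share of its enhancers. The liver also contains endothelial cells of the sinusoids, resident macrophages (Kupffer cells), stellate cells, lymphocytes and bile duct cells, and a histone mark measured in whole tissue is a sum over all of them.

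The sequence of these loci can be read in 6 stretches of 200 bases from 6 of them, given on the plus strand of mm9, in lower case with matches of the AP-1 string TGANTCA and the ETS string GGAAGT in capitals on either strand. AP-1 factors (the Fos and Jun families) and ETS factors act downstream of growth factor and cytokine signals. The first 3 stretches come from the loci with the most matches of both strings per kb among loci of at least 2000 bp that promoters contacted on both diets (3.44, 3.33 and 3.21 matches per kb, against a median of 1.11 over all 3046). The other 3, from the longest loci beside Ets1, Kdr and Maf, were chosen after their values were seen. The Ier5 and Zfp648 loci lie between genes, the Lrrc28 locus in an intron of that gene, the Ets1 and Kdr loci reach into exons of those genes although the printed stretches hold no exon base, and the Maf locus lies between genes 175 kb from its nearest TSS.
Ier5 locus, chr1:156897366-156897565: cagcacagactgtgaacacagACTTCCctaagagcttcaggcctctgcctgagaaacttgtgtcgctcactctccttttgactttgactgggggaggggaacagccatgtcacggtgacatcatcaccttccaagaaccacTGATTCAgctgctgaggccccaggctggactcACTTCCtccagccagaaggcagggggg
Zfp648 locus, chr1:155945524-155945723: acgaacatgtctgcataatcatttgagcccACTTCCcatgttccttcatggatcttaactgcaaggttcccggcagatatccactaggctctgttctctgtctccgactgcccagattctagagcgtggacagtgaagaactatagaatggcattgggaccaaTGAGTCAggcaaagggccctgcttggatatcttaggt
Lrrc28 locus, chr7:74694769-74694968: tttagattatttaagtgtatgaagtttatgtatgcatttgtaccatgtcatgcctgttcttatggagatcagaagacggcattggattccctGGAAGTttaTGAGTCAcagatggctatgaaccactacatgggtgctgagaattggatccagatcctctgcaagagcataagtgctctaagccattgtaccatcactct
Ets1 locus, chr9:32557209-32557408: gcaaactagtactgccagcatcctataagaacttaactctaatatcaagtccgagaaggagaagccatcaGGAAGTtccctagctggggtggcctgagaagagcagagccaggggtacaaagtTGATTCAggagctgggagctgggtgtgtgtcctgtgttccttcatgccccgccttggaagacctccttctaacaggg
Kdr locus, chr5:76331363-76331562: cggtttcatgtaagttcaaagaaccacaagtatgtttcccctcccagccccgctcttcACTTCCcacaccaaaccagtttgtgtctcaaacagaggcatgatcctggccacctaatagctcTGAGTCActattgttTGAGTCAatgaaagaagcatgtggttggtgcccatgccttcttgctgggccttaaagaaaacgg
Maf locus, chr8:118053434-118053633: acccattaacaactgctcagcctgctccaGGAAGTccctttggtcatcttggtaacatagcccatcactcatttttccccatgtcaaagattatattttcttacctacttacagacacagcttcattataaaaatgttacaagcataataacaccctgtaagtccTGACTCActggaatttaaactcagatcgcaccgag
Each stretch was taken as the 200 bases of its locus, outside exons, with the most matches of these strings, so the matches in it are the choice and no finding. The Ier5 locus was contacted by the promoter of Mr1 and the Zfp648 locus by those of Glul, Mir8114 and Teddm1a, while the Ets1, Kdr and Maf loci had no contact found on both diets. Across every 200-base window of the 17109 loci, 6.61% held the AP-1 string and 12.8% the ETS string.

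The edges of the selection were as follows. The loci nearest to a TSS that were kept lay 5019 bp from it and the nearest that were not kept lay 4991 bp from it. The longest mean covered length among the 3046 was 18400 bp, below the 21067 bp at which the broadest loci began, and none of the broadest distal loci lacked a factor peak. On the factor side, 1251 loci of the comparison set had a peak in 1 list of 8 (588 in an HNF4a list and 663 in a C/EBPa list) and 4267 had a peak in all 8. The deposited height of the factor peaks (a normalised tag count) had a median of 7.50 at loci with a peak in 1 list and 38.0 at loci with a peak in all 8. A factor peak was often close by: the nearest lay 4 bp from a locus, the median distance was 4.58 kb, 331 loci had a factor peak within 1 kb and 697 had none within 10 kb.

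The loci were shorter than those with a factor peak. Their merged length had a median of 3200 bp (400 to 24200 bp) against 4000 bp, and their covered length, the bases under peaks averaged over the 6 samples, a median of 2067 bp against 2733 bp. The distance to the nearest TSS had medians of 31.9 kb and 31.4 kb. Covered length varied more between samples without a factor peak, with a median coefficient of variation over the 6 samples of 27.1% against 20.2%.

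Summed over the 3046 loci, H3K27ac covered more bases in LD than in CD livers. Peaks spanned 7.71, 8.28 and 7.89 Mb in the LD samples, and in the CD samples 6.86, 7.48 and 6.19 Mb. Every LD sample thus lay above every CD sample, with CD replicate 3 the lowest of the 6. The means were 7.96 ± 0.290 Mb and 6.84 ± 0.647 Mb (SD, n = 3 per diet), a ratio of 1.16 with an exact two-sided permutation p of 0.10, the smallest that 3 samples against 3 can give. The loci with a factor peak had 54.4, 53.7 and 51.2 Mb under peaks in the LD samples and 51.2, 51.6 and 52.1 Mb in the CD samples, a ratio of 1.03 (exact permutation p = 0.40), and here the samples overlapped. The files hold peak intervals only, so the depth behind each list is unknown. More peaks were called in the LD samples (54114, 56987 and 53821) than in the CD samples (50183, 51608 and 48156), and the part of peak calling in the difference was not tested. In bulk liver, fewer cells of a type and less of the mark per cell cannot be told apart.

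Taken within each sample, the loci held 12.4%, 13.3% and 13.4% of the bases covered at the 17109 distal shared loci on LD and 11.8%, 12.7% and 10.6% on CD. These shares overlapped (13 ± 0.542% and 11.7 ± 1.03%, SD, n = 3, exact permutation p = 0.20). Set against the bases covered at loci with a peak in all 8 factor lists, the loci covered 47.5%, 52.6% and 51.9% as much on LD and 43.7%, 48.1% and 38.3% on CD, again with 1 overlap and an exact permutation p of 0.20. Without CD replicate 3 the rule found 4063 loci and the LD to CD ratio of their covered bases was 1.12.

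**Figure D1:**
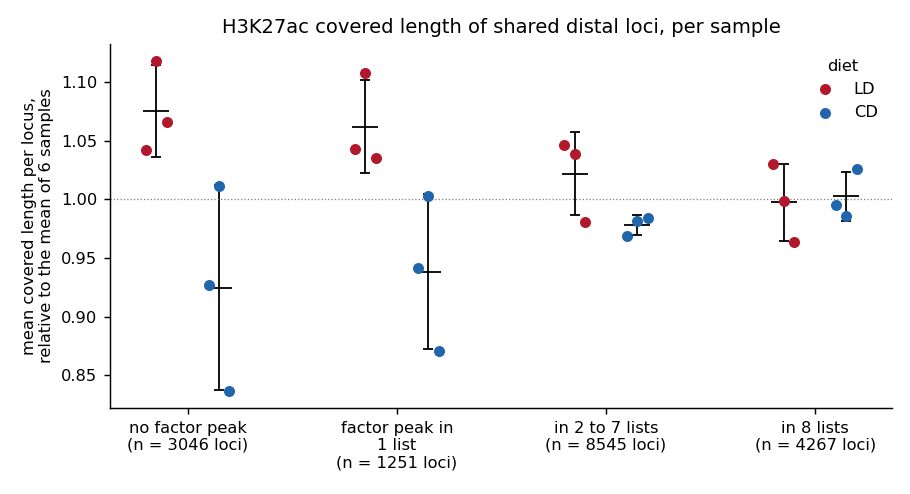
Mean covered length per locus in each H3K27ac sample, divided by the mean of the 6 samples, for loci with no factor peak and with a factor peak in 1, 2 to 7 or 8 lists. Points are samples (3 LD, 3 CD), and the black marks are the mean and SD. The 3046 loci with no factor peak have an LD to CD ratio of 1.16 with the diets apart, and the 4267 bound in all 8 lists a ratio of 0.995.

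The LD to CD ratio became smaller with the number of factor lists that had a peak at the locus: it was 1.16 with none, 1.13 with 1, 1.04 with 2 to 7 and 0.995 with 8. The order held among loci of like length. For loci of 5000 to 10000 bp, the mean covered length per locus without a factor peak was 4360, 4796 and 4496 bp on LD and 3812, 4247 and 3457 bp on CD, a ratio of 1.19. In the same length class the ratio was 1.17 with a peak in 1 list, 1.06 with 2 to 7 and 1.0 with 8. For the shortest class, 1000 to 2000 bp, the ratios were 1.09, 1.05, 1.04 and 0.993. Each of the 4 length classes without a factor peak gave an exact permutation p of 0.10, and the differences between ratios were not themselves tested. With a peak in 1 list the same test also gave 0.10 over all lengths and in every class but 2000 to 3000 bp (0.30). With 2 to 7 lists it gave 0.10 in each class under 5000 bp, 0.20 at 5000 to 10000 bp and 0.30 over all lengths. All of these values come from the same 6 samples and are not independent. Distance to the nearest factor peak made little difference among the 3046 loci: the ratio was 1.15 with a factor peak within 1 kb, 1.16 with the nearest at 1 to 10 kb and 1.19 with none within 10 kb.

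Locus by locus, 396 of the 3046 (13%) were longer in all 3 LD samples than in any CD sample and 53 (1.74%) were longer in all 3 CD samples. Over the 29890 loci shared by the 6 samples these shares were 10.2% and 5.18%, and over the 14063 with a factor peak they were 9.84% and 6.44%. Leaving out any 1 of the 6 H3K27ac samples, with fewer samples to set apart, gave 578 to 798 loci longer on LD and 103 to 200 longer on CD. The largest gains and losses in covered length among these 396 and 53 loci, chosen after their values were seen, show the range. A locus 22.8 kb from the TSS of Dppa3 (chr6:122599201-122610000) covered 8400, 9600 and 9400 bp on LD and 600, 1600 and 2400 bp on CD. An intronic locus of Prkch, a protein kinase C gene (chr12:74702801-74715200), covered 11400, 9600 and 10000 bp on LD and 3400, 7200 and 1600 bp on CD. A locus at Sla, which encodes an adaptor of lymphocyte receptor signalling, within Tg (chr15:66642001-66653000), covered 7400, 11000 and 9400 bp on LD and 4000, 4400 and 3600 bp on CD. The Sla locus holds a start of a GENCODE transcript of Sla that the list of TSS did not hold, and so did 291 of the 3046 loci (9.55%) for some GENCODE transcript.

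In the other direction, an intronic locus of Ghr, the growth hormone receptor gene (chr15:3482201-3488000), covered 1600, 1400 and 1200 bp on LD and 3400, 4800 and 5400 bp on CD. A locus 77.8 kb upstream of Elovl5, which encodes a fatty acid elongase (chr9:77681401-77687400), covered 2000, 1800 and 2600 bp on LD and 4400, 5000 and 5200 bp on CD. The promoters of Elovl5, Fbxo9, Gcm1 and Ick contacted it on both diets. Elovl5 RNA was 1309, 1362, 1769, 1953 and 1971 CPM (counts scaled to library size) in the LD mice and 1401, 1295, 963, 1143 and 1583 in the CD mice. The mice overlapped, and the log2 fold change of LD over CD was 0.39 ± 0.15 (SE), with an adjusted p of 0.0701 by the quasi-likelihood test of edgeR with Benjamini-Hochberg adjustment, so the direction of the locus and that of the gene's mean were opposite but the RNA difference did not pass. Over its 15 alternatives the adjusted p ran from 0.0337 to 0.149, and 5 of them, DESeq2 and limma included, passed.

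The broadest of the 3046 was a locus in Ets1 (chr9:32541201-32565400), which spans 24200 bp from inside the gene to its 3′ end. Its covered length was 19400, 19400 and 22400 bp on LD and 16800, 18200 and 14200 bp on CD, with every LD sample above every CD sample. The next was an intronic locus of Zeb2, a zinc finger repressor gene (chr2:44891601-44914800), with 15400, 20000 and 21800 bp on LD and 10400, 16600 and 9800 bp on CD, where the diets overlapped. A locus in Mertk, which encodes a receptor for the uptake of dying cells by macrophages (chr2:128568201-128585800), covered 12400, 16200 and 15200 bp on LD and 12200, 15000 and 14400 bp on CD, and was contacted by the Mertk promoter on both diets. The last 2 of the broadest 5 lay 102 kb from the TSS of Tmem2 (chr19:21955201-21968400, mean covered length 11667 bp) and at Stk40 (chr4:125802201-125815600, mean covered length 10933 bp). The Mertk locus and the Stk40 locus each hold a GENCODE transcript start, of Gm14011 and of Stk40.

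By the GENCODE annotation, 1096 of the loci (36.0%) lay in introns only, 1208 (39.7%) between genes and 742 (24.4%) shared a base with an exon. For loci with a factor peak these shares were 31.4%, 40.4% and 28.2%. The loci tended to sit beside each other: the next distal shared locus along the chromosome was also without a factor peak after 878 of 3040 of them (28.9%), against 2165 of 14049 (15.4%) after a locus with a factor peak. The longest run, 10 loci with no factor-bound locus between them, spanned 961 kb (chr5:75375201-76336400), and the genes nearest to its loci were Kit, Kdr, Gm6116 and Mir7025. Kit and Kdr encode receptor tyrosine kinases, the former for stem cell factor and the latter for vascular endothelial growth factor. The share of distal shared loci without a factor peak ran from 13.3% on chromosome X to 22.4% on chromosome 7. The median distance to the nearest domain boundary was 77.7 kb in the LD list and 78.7 kb in the CD list, against 79.0 kb and 81.3 kb for loci with a factor peak.

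The loci had 2240 nearest genes. Tns3, which encodes tensin 3, a focal adhesion protein, was nearest to 11 of them, the most of any gene, and also to 10 loci with a factor peak. Its 11 loci, spread over 599 kb of chromosome 11, together covered 36000, 34800 and 35800 bp on LD and 25000, 31200 and 19600 bp on CD, a ratio of 1.41 with the diets apart. Tns3 RNA was 15.2 ± 2.83 TPM (transcript counts scaled to gene length and library size) on LD and 14.2 ± 1.55 TPM on CD (SD, n = 5), a log2 fold change of 0.02 with an adjusted p of 0.924 by edgeR with Benjamini-Hochberg adjustment. The covered length of these loci was thus apart between the diets while the RNA overlapped.

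Next came Maf, a basic leucine zipper factor of macrophages and sinusoidal endothelium, nearest to 9 loci and to 13 loci with a factor peak. Of the 9, 6 lay between genes and 3 in introns of other genes, 73.4 to 616 kb from its TSS, and together they covered 17000, 20400 and 20600 bp on LD and 15800, 17600 and 14200 bp on CD, where the diets overlapped. Tmem2, a cell surface hyaluronidase gene, was nearest to 8 loci that covered 41000, 39200 and 40600 bp on LD and 33800, 36400 and 30800 bp on CD, and 4 of the 8 were longer in every LD sample. Tmem2 was the only one of the 10 genes with the most loci whose RNA passed the test. Its level was 40.4, 49.4, 41.7, 40.9 and 45.8 CPM in the LD mice and 38.4, 35.5, 33.1, 35.9 and 35.3 CPM in the CD mice, with no overlap (log2 fold change 0.29 ± 0.07 SE, adjusted p = 0.00840 by edgeR with Benjamini-Hochberg adjustment). Without LD replicate 2 its log2 fold change was 0.24, under the fold of 1.2 that a call also needed.

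Kdr, the main receptor of vascular endothelial growth factor, was nearest to 8 loci, 2 of them overlapping the gene, and to 3 loci with a factor peak. The 8 together covered 26400, 23600 and 31200 bp on LD and 19000, 25400 and 18400 bp on CD, with overlap, and 1 of the 8 was longer in every LD sample. That 1 was the locus over the 3′ end of Kdr (chr5:76328001-76336400), which covered 7800, 6600 and 8400 bp on LD and 3600, 5000 and 3600 bp on CD. The locus within the gene at chr5:76354401-76361200 covered 4800, 4200 and 4800 bp on LD and 5200, 5600 and 4000 bp on CD, with the diets overlapping. Kdr RNA was 114, 140, 115, 95.8 and 93.2 CPM on LD and 151, 139, 120, 145 and 125 CPM on CD, and it did not pass the test (log2 fold change -0.28, adjusted p = 0.0701 by edgeR with Benjamini-Hochberg adjustment). Ets1, the founding ETS factor gene, was nearest to 6 loci, all overlapping the gene, and to 1 locus with a factor peak. Those 6 covered 52600, 51000 and 54600 bp on LD and 44200, 44000 and 38400 bp on CD, which is the largest sum among the 10 genes, and the diets were apart. Ets1 RNA was 22.8 ± 2.32 TPM on LD and 18.5 ± 1.74 TPM on CD (adjusted p = 0.0607 by edgeR with Benjamini-Hochberg adjustment).

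The other 5 genes of the 10 were 9430078K24Rik and Xxylt1 (8 loci each), and Rgs3, Tcf4 and Asap1 (7 loci each). In that order, they were also nearest to 12, 8, 3, 3 and 7 loci with a factor peak. Rgs3 encodes a regulator of G protein signalling, Asap1 a GTPase activator of ARF proteins, Tcf4 a basic helix-loop-helix factor and Xxylt1 a xylosyltransferase acting on Notch. The 7 loci of Tcf4 and the 7 of Asap1 all overlapped the gene. The loci of Rgs3 covered 35000, 41000 and 37000 bp on LD and 28200, 31200 and 24200 bp on CD (ratio 1.35), those of Asap1 gave a ratio of 1.27 and those of 9430078K24Rik a ratio of 1.34, all with the diets apart. Those of Tcf4 (1.1) and Xxylt1 (1.05) overlapped between diets. The RNA of Rgs3, Tcf4, Asap1 and Xxylt1 did not pass the test (adjusted p from 0.311 to 0.791 by edgeR with Benjamini-Hochberg adjustment), and 9430078K24Rik had 0 counts in all 10 mice.

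The nearest genes were also read against 6 lists of cell type markers and 6 lists of gene groups. Against 17.8% over all distal shared loci, 25 of the 58 loci nearest to an endothelial marker (43.1%) had no factor peak, and 2 of the 37 nearest to a hepatocyte marker (5.41%). The 25 endothelial loci lay near 12 of the 28 endothelial markers, and 8 of the 25 near Kdr alone. Kdr, Flt1 (a second receptor of vascular endothelial growth factor, 3 loci), Erg (an ETS factor of endothelial cells, 3 loci) and Bmp6 (a ligand that sinusoidal endothelial cells secrete, 1 locus) are examples. The 3 Erg loci lay in its introns and covered 6600, 11400 and 8400 bp on LD and 5200, 5800 and 5600 bp on CD, and the 3 Flt1 loci covered 6800, 7600 and 7400 bp on LD and 5800, 6600 and 3400 bp on CD. Both sets were apart between the diets. The Kdr loci together overlapped, as given above, and so did the Bmp6 locus, with 800, 1800 and 1000 bp on LD and 400, 800 and 800 bp on CD.

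For the hepatocyte list the 2 loci lay near Ttr, which encodes transthyretin, and Foxa2, a pioneer factor gene, and both lay 30.9 kb or more from the TSS. Stellate cell markers had 4 of 13 loci without a factor peak (30.8%), 1 each near Col1a2, Dcn, Lama1 and Sparc, which encode a collagen chain, decorin, a laminin chain and osteonectin. Macrophage markers had 2 of 5, both near Irf8, a factor of the monocyte lineage, lymphocyte markers 2 of 11 (18.2%), both near Cd28, and bile duct markers 0 of 6. The counts behind the macrophage, lymphocyte and bile duct lists are small, and loci near 1 gene are not independent of each other.

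**Figure D2:**
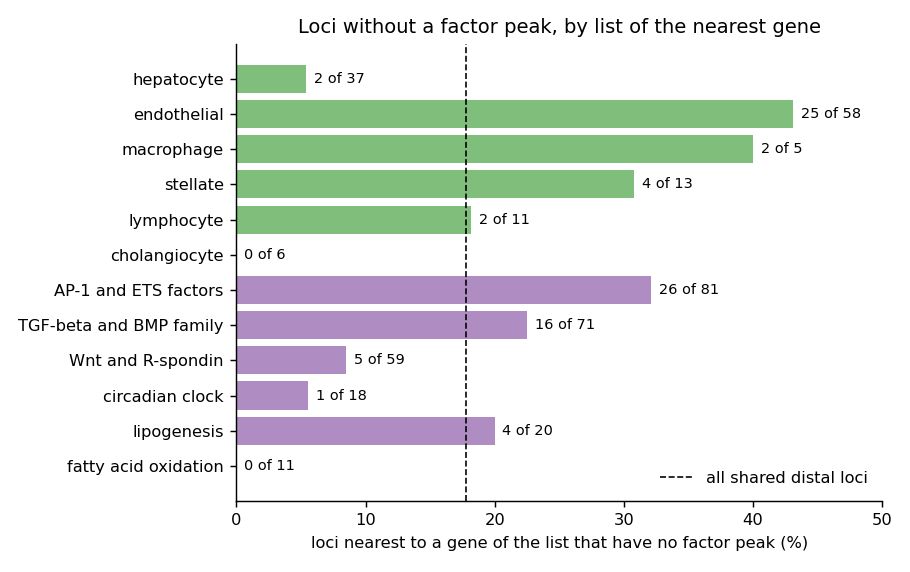
Share of distal shared H3K27ac loci with no factor peak, by the list that their nearest gene belongs to (x axis, percent), with cell type lists in green and gene groups in purple and the counts beside each bar. The dashed line is the share over all distal shared loci, 17.8%, and the endothelial list stands at 43.1% and the hepatocyte list at 5.41%.

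The RNA of the marker lists moved between diets to different degrees, beside 13.9% of all genes tested that were higher on LD and 11.3% higher on CD. All 22 macrophage markers were detected and 7 rose on LD and 0 fell, with overlapping summed levels of 1083 to 2383 TPM on LD and 694 to 1228 TPM on CD. Of the 20 stellate cell markers, 7 rose and 1 fell, with overlapping sums of 586 to 891 TPM on LD and 516 to 600 TPM on CD. Of the 28 endothelial markers, 1 rose and 1 fell, with overlapping sums of 509 to 710 TPM on LD and 566 to 649 TPM on CD. Of the 24 hepatocyte markers, 1 rose and 7 fell, with overlapping sums of 108587 to 120483 TPM on LD and 112918 to 126108 TPM on CD, so hepatocyte RNA made up most of the marker RNA in each mouse. Of the 18 lymphocyte markers 3 rose and 1 fell (23.8 to 47.8 TPM and 19.4 to 24.0 TPM), and of 9 bile duct markers tested 1 rose and 2 fell (59.6 to 156 TPM and 26.3 to 65.0 TPM). No marker of any list was at 0 in all mice. The part of these cell types in the covered length of the loci was not tested.

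Promoters contacted a minority of the loci. Promoter capture Hi-C pulls down restriction fragments that carry promoters (baited fragments) and lists the fragments they meet, and here a list of scored interactions within 1 Mb was deposited per diet, with the replicates pooled, so no test between the diets could be made. On LD 933 of the 3046 loci (30.6%) overlapped the distal end of an interaction, and on CD 890 (29.2%). Both lists held 762 (25%, exact Clopper-Pearson interval 23.5 to 26.6%), 171 were in the LD list only, 128 in the CD list only and 1985 (65.2%) in neither. For 733 (24.1%) the same baited fragment was found on both diets. Of the loci with a factor peak, 31.3% were contacted in both lists (30.6 to 32.1%).

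The shares were also read by length of the locus. Among loci of 5000 to 10000 bp, 27.6% without a factor peak (23.7 to 31.7%) and 36.4% with one (34.9 to 38.0%) were contacted in both lists. Among loci of 1000 to 2000 bp the order was the other way round, 26.7% (21.8 to 32.0%) and 22.7% (20.1 to 25.3%), with intervals that overlapped. The share was 21.7% without and 24.6% with a factor peak at 2000 to 3000 bp, and 26% and 29.8% at 3000 to 5000 bp. The intervals cover counting error only, and neighbouring loci can share a fragment. Loci with no factor peak within 10 kb had the same baited fragment on both diets in 17.8% of cases, against 25.7% with a factor peak at 1 to 10 kb and 27.5% within 1 kb.

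**Figure D3:**
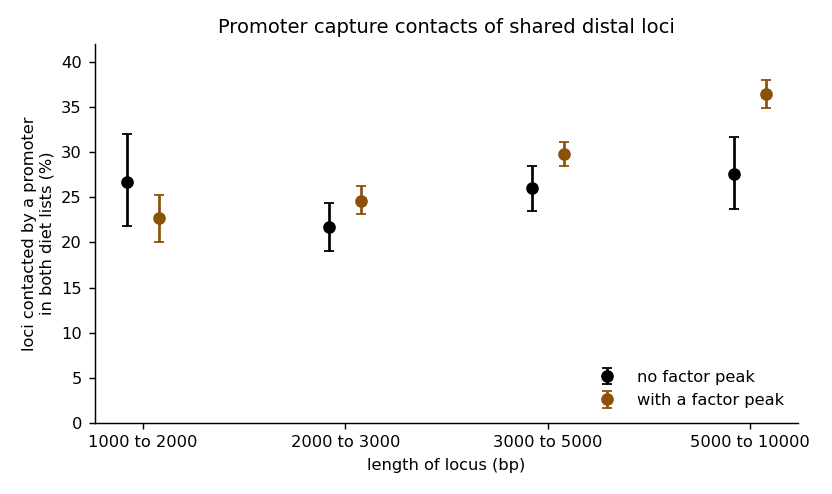
Share of distal shared loci contacted by a promoter in the interaction lists of both diets (y axis, percent), by length of the locus (x axis), for loci without (black) and with (brown) a factor peak. Bars are exact 95% intervals for counting error, and the shares are 27.6% and 36.4% in the longest class and 26.7% and 22.7% in the shortest.

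The 733 loci made 1358 pairs with baited fragments found on both diets, at a median distance of 169 kb, with 75% of pairs over 100 kb apart. Interaction scores had medians of 7.83 on LD and 7.53 on CD, where 5 was the lowest score listed. Most loci met few promoters: 432 met 1 baited fragment and 39 met 5 or more. The most, 13, was at a locus in Skap2 (chr6:51825201-51832800) that met, among others, the promoters of Skap2, Nfe2l3 and Tax1bp1. It covered 4600, 5400 and 5800 bp on LD and 3800, 6600 and 4400 bp on CD, with overlap. A locus near Clec12b (chr6:129316801-129324000) met 12 baited fragments, among them those of Clec7a, Cd69, Olr1 and Klrb1c, genes of the C-type lectin receptor cluster of immune cells. A pair of neighbouring loci near Mark4 (chr7:20056001-20060200 and chr7:20062601-20064200) met 12 each, with the same promoters that included Relb, Ckm and Tomm40, and a locus near Gnb1 (chr4:154855201-154857000) met 11. The nearest gene was among the contacted genes for 122 of the 642 loci that met a fragment with a named gene (19.0%, exact interval 16.0 to 22.3%), against 22.5% for loci with a factor peak (21.2 to 23.8%).

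By number of loci, Fam43a was the most contacted gene: its promoter met 9 of the loci on both diets, at 220 to 466 kb, and 8 of those 9 were nearest to Xxylt1. The promoter of the neighbouring gene Lsg1, which encodes a GTPase of ribosome assembly, met those 8. The promoters of Fam43a and Lsg1 also met 8 and 7 loci with a factor peak. The 9 loci of Fam43a together covered 25600, 29400 and 29000 bp on LD and 27200, 28600 and 24000 bp on CD, with overlap. Neither gene's RNA passed the test, with 3.97 ± 0.596 and 3.86 ± 0.456 TPM for Fam43a and 16.1 ± 0.998 and 16.7 ± 0.994 TPM for Lsg1 on LD and CD (SD, n = 5, adjusted p of 0.877 and 0.287 by edgeR with Benjamini-Hochberg adjustment).

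Ldhd, which encodes D-lactate dehydrogenase, came next with 5 loci, and its RNA was 131 ± 14.2 TPM on LD and 105 ± 9.67 TPM on CD (SD, n = 5, adjusted p = 0.0760 by edgeR with Benjamini-Hochberg adjustment). With 4 loci each followed Relb, Ghrhr, Calcrl, Spred1 and the trio Hic1, Mir132 and Mir212, which share 1 baited fragment. Other genes with 4 loci, such as Asap1 and Ets2, came after these by summed interaction score. Relb, which encodes a subunit of the NF-κB family, was the only one of these 10 genes whose RNA rose on LD, and 3 of the 10 (Mir132, Mir212 and Ghrhr) had too few counts to be tested. It was 4.25, 4.58, 5.0, 5.12 and 4.28 CPM in the LD mice and 2.49, 2.79, 2.04, 3.24 and 2.5 CPM in the CD mice, with no overlap (log2 fold change 0.83 ± 0.14 SE, adjusted p = 8.65e-04 by edgeR with Benjamini-Hochberg adjustment). The 4 loci that its promoter met covered 8400, 8600 and 9800 bp on LD and 8600, 7200 and 6200 bp on CD, with overlap. The Relb promoter also met 8 loci with a factor peak. The 4 loci met by Calcrl, the receptor gene for calcitonin gene-related peptide and adrenomedullin, covered 11000, 12000 and 12200 bp on LD and 6800, 8000 and 6800 bp on CD, with no overlap. Calcrl RNA did not pass the test (16.6 ± 3.56 and 17.1 ± 1.24 TPM, SD, n = 5, adjusted p = 0.509 by edgeR with Benjamini-Hochberg adjustment).

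Genes near the loci were called between the diets about as often as genes at large. A gene was called when its adjusted p was under 0.05 and its fold change over 1.2. Of 13494 genes tested, 25.2% were called, 13.9% higher on LD and 11.3% higher on CD. Of the 2240 nearest genes 1700 passed the filter on low counts, and 447 of these (26.3%) were called, 241 higher on LD and 206 higher on CD. Of the 1010 genes contacted by a locus on both diets, 739 passed the filter and 185 (25%) were called, 98 higher on LD and 87 higher on CD. These shares lie near the background. With limma on log2(TPM + 1) the split leaned to LD, 292 against 94 for the nearest genes and 114 against 43 for the contacted genes, and so it did over all genes tested, with 75% of calls higher on LD against 55.2%.

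The 866 genes that were nearest to such a locus and to no locus with a factor peak were expressed at a median of 2.36 TPM, against 4.6 TPM for the genes nearest only to loci with a factor peak. Of the 628 tested, 90 (14.3%) rose on LD and 41 (6.53%) rose on CD. Of the 3862 tested genes nearest only to loci with a factor peak, 540 (14%) rose on LD and 606 (15.7%) on CD. The share that rose on LD was thus near the background in both sets, and the share that rose on CD was 6.53% and 15.7% around a background of 11.3%. Contacts gave values of the same order: of 221 tested genes contacted by a locus without a factor peak and by none with one, 37 (16.7%) rose on LD and 14 (6.33%) on CD.

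The nearest genes were next divided by the loci whose covered length was apart between the diets. Of 295 tested genes nearest to those 396 loci, 60 (20.3%) rose on LD and 19 (6.44%) on CD. Of 45 tested genes nearest to the 53 loci longer in all CD samples, 2 (4.44%) rose on LD and 13 (28.9%) on CD. Over all genes tested these shares were 13.9% and 11.3%. Of 114 tested genes that promoter contacts joined to the first set, 13 (11.4%) rose on each diet, and of 22 joined to the second set 4 rose on LD and 6 on CD.

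The 10 strongest calls by fold change among contacted genes, out of 108 with all mice of the diets apart and at least 1 CPM, comprised 8 higher on LD and 2 higher on CD. Over all contacted genes called the split was 98 to 87, with 53.0% of calls higher on LD against 55.2% over all genes tested. Krt23, a keratin gene, was 7.60, 2.94, 5.24, 7.73 and 4.42 CPM on LD and 1.47, 1.41, 1.03, 0.540 and 1.57 CPM on CD, a log2 fold change of 2.20 ± 0.30 (SE). The locus that its promoter met lay 795 kb away near Krt42 and covered 1400, 2400 and 2000 bp on LD and 2000, 2400 and 2000 bp on CD. The gene rose while the covered length of this locus overlapped between the diets. Cd36, which encodes a fatty acid translocase, was 329, 304, 462, 434 and 541 CPM on LD and 122, 105, 157, 81.9 and 91.9 CPM on CD, a log2 fold change of 1.89 ± 0.19 (SE). A locus 149 kb from its promoter, near Gnat3, met it on both diets, with scores of 11.8 on LD and 10.1 on CD, and covered 2400, 3200 and 2600 bp on LD and 3400, 2400 and 1800 bp on CD. The 2 loci nearest to Cd36, at 9.02 and 14.6 kb, also overlapped between the diets.

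Clec7a, the gene of the beta-glucan receptor dectin-1, was 19.6, 39.9, 33.4, 34.4 and 37.8 CPM on LD and 11.9, 12, 9.66, 7.30 and 8.12 CPM on CD, a log2 fold change of 1.75 ± 0.19 (SE). Its promoter met the Clec12b locus described above, which covered 3400, 6800 and 4800 bp on LD and 3200, 3200 and 5400 bp on CD. Of the 22 macrophage markers 7 rose as Clec7a did and 15 did not pass, beside 13.9% that rose over all genes tested. The summed levels of these markers overlapped between the diets, and their part in the rise of Clec7a was not tested. Jun, a core AP-1 subunit, was 17.9, 25.3, 41.4, 31.1 and 35.1 CPM on LD and 10.3, 12.1, 15.1, 13.8 and 13.2 CPM on CD, a log2 fold change of 1.23 ± 0.19 (SE). The 2 loci nearest to Jun, at 29.1 and 52.9 kb, covered 2600, 3000 and 2800 bp against 1600, 2200 and 1000 bp, and 1600, 2800 and 2200 bp against 800, 600 and 600 bp, on LD and CD. Both were longer in every LD sample, and the loci without a factor peak that the Jun promoter met were others, 302 to 437 kb away near Fggy. Jun was also nearest to 7 loci with a factor peak, and its promoter met 14 of that kind.

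Ihh, a hedgehog ligand gene, was 0.541, 0.906, 0.838, 0.728 and 0.615 CPM on LD and 1.75, 2.56, 1.45, 1.11 and 2.01 CPM on CD, a fall with a log2 fold change of -1.29 ± 0.25 (SE). Its locus, 61.4 kb away near Nhej1, covered 2400, 2600 and 1600 bp on LD and 2800, 3800 and 3000 bp on CD, with the diets apart. 9430083A17Rik also fell on LD (log2 fold change -1.31). The others rose on LD: Cdca3 (1.70) and Sgol2a (1.38), genes of cell division, Bmper (1.36), a modulator of BMP ligands, and Fam131c (1.39). The baited fragment of Cdca3 also holds Usp5, and that of 9430083A17Rik also holds Spin1, so these contacts belong to either gene. Over the 10 genes the adjusted p ran from 3.49e-05 to 0.00335 by edgeR with Benjamini-Hochberg adjustment.

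**Figure D4:**
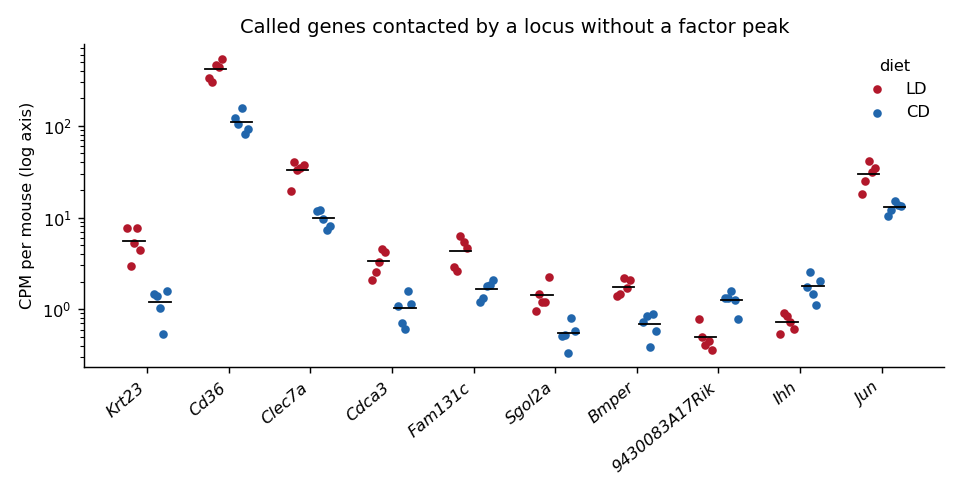
RNA level in each mouse (points, CPM on a log axis) and mean (black line) of the 10 contacted genes with the strongest calls, whose promoter met a locus without a factor peak on both diets. In each gene the 5 LD mice and the 5 CD mice do not overlap, which the choice of genes required; Krt23 has the largest difference, with a log2 fold change of 2.20.

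Among AP-1 and ETS factor genes, 26 of 81 nearest loci (32.1%) had no factor peak, beside 17.8% over all loci, and 6 of the 26 lay at Ets1. The loci were nearest to or contacted by 15 genes of the list, and of these 3 rose on LD and 0 fell, while of all 25 tested genes of the list 6 rose and 1 fell, beside 13.9% that rose and 11.3% that fell over all genes tested. Ets1 and Jun are described above. Fos, the partner of Jun in AP-1, had 4 loci, which covered 7400, 7000 and 7800 bp on LD and 7000, 8000 and 6800 bp on CD, with overlap, and its RNA ranged from 2.38 to 3.97 CPM on LD and 0.475 to 3.34 CPM on CD (adjusted p = 0.163 by edgeR with Benjamini-Hochberg adjustment). The promoter of Ets2 met 4 loci at 122 to 190 kb. Ets2 had 21.5 ± 2.47 TPM on LD and 17.4 ± 1.16 TPM on CD (SD, n = 5), an adjusted p of 0.0230 by edgeR with Benjamini-Hochberg adjustment and a log2 fold change of 0.23, under the fold that a call needed. Etv6, an ETS repressor gene, had 3 loci in its introns and 11 loci with a factor peak.

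The TGF-beta and BMP list had 16 of 71 nearest loci without a factor peak (22.5%), and of its 9 genes near or contacted by such a locus 3 fell on LD and 0 rose, while of all 27 genes of the list 6 fell and 1 rose, beside 11.3% that fell and 13.9% that rose over all genes tested. Bmp6 was 4.68, 4.30, 3.63, 3.94 and 3.55 CPM on LD and 9.72, 7.86, 8.21, 9.65 and 6.32 CPM on CD, a log2 fold change of -1.05 ± 0.13 SE with no overlap (adjusted p = 1.73e-04 by edgeR with Benjamini-Hochberg adjustment). Its promoter met 2 loci near Bloc1s5, which covered 3200, 4200 and 4000 bp on LD and 4400, 3400 and 3400 bp on CD and overlapped. Smad7, which encodes an inhibitory Smad, also fell (log2 fold change -0.53 ± 0.11 SE, adjusted p = 0.00312 by edgeR with Benjamini-Hochberg adjustment). Smad6, the other inhibitory Smad gene, had 3 loci and an adjusted p of 0.641 by the same edgeR test. Tgfbr2, the type II receptor gene, had 3 loci and 20.5 ± 2.46 and 18.1 ± 0.897 TPM on LD and CD (SD, n = 5), with an adjusted p of 0.330 by edgeR.

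The Wnt and R-spondin list had fewer, 5 of 59 nearest loci (8.47%). Of its 7 genes near or contacted by such a locus 5 fell on LD and 0 rose, beside 11.3% and 13.9% over all genes tested. They included Fzd5, a Wnt receptor gene, at 1.98 ± 0.162 TPM on LD and 2.83 ± 0.204 TPM on CD (SD, n = 5), with an adjusted p of 7.17e-04, and Tcf7l2, a nuclear effector gene of the pathway, at 1.62 ± 0.213 and 2.35 ± 0.469 TPM, with an adjusted p of 0.00660 (both by edgeR with Benjamini-Hochberg adjustment). Over the whole list 1 of 21 genes tested rose and 8 fell. The promoter of Fzd5 met 2 loci near Plekhm3, which covered 5600, 6000 and 6000 bp on LD and 4600, 3600 and 3600 bp on CD, so the loci were longer and the RNA lower on LD.

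Genes of fatty acid oxidation and the clock had few such loci, 0 of 11 nearest loci and 1 of 18 (5.56%, near Arntl). Lipogenesis genes had 4 of 20, a share near the 17.8% over all distal shared loci. In the lipogenesis list 8 of 15 genes fell on LD and 0 rose, while 13 of 20 fatty acid oxidation genes rose and 1 fell, beside 13.9% that rose and 11.3% that fell over all genes tested. Acaca, which encodes the enzyme that makes malonyl-CoA, had 2 of the 4 loci, both in the gene. Together they covered 3800, 3200 and 4000 bp on LD and 6000, 5400 and 6400 bp on CD, with every CD sample above every LD sample. Taken singly, 1 of the 2 was longer in every CD sample and the other overlapped between the diets. Acaca was also nearest to 3 loci with a factor peak. Acaca RNA was 226, 191, 243, 252 and 268 CPM on LD and 558, 516, 388, 424 and 444 CPM on CD, a log2 fold change of -0.98 ± 0.11 SE (adjusted p = 8.50e-05 by edgeR with Benjamini-Hochberg adjustment), so both measures were lower on LD.

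The sequences were searched on both strands for 14 fixed strings. Those of signal-responsive families were TGANTCA for AP-1, GGAAGT for ETS and TTCCNNGAA for STAT. Those of hepatocyte factors were CAAAGTCCA for HNF4, CAAAGGTCA for DR1 (a direct repeat of nuclear receptors), TTGCNNAA for C/EBP, TAATNATTA for HNF1, TATTGAT for ONECUT and TGTTTAC for FOXA. The others were AGATAAG for GATA factors, ACAATGG for SOX factors, TGTGGTT for RUNX factors, GGAATGT for TEAD factors and a degenerate core of the CTCF motif. A match of ETS can share bases with one of STAT. The HNF4 string was found 0.0107 times per kb in the 3046 loci and 0.0232 times per kb in the loci with a factor peak, a ratio of 0.461 (exact interval 0.379 to 0.556, counting error only), and 3.74% and 10.8% of loci held it. The DR1 string gave a ratio of 0.653, HNF1 0.711, ONECUT 0.798 and C/EBP 0.861. Since the loci were selected on the absence of HNF4a and C/EBPa peaks, the HNF4, DR1 and C/EBP values describe the selection.

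ETS went the other way. Its string was found 0.820 times per kb without and 0.678 times per kb with a factor peak, a ratio of 1.21 (exact interval 1.18 to 1.24), and in 200-base windows 14.8% against 12.5% held it. The AP-1 string was as dense in both sets (0.348 and 0.343 per kb, ratio 1.02), in 6.67% and 6.60% of windows. Base composition also differed, with 46.0% G and C against 45.0% and 12.1 CpG per kb against 11.1 over whole loci, and 47.8% against 45.8% and 14.9 CpG per kb against 12.2 in the bases covered in all 6 samples. Its part in the string counts was not tested. FOXA (1.05), STAT (1.05), TEAD (1.06), GATA (1.03), SOX (0.973), RUNX (0.925) and CTCF (0.917) lay near 1. In the bases covered in all 6 samples the ETS ratio was 1.31 and the HNF4 ratio 0.385, and among loci of 1000 to 3000 bp they were 1.27 and 0.332.

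The density of both strings was also read by the number of factor lists with a peak. Since those lists are of HNF4a and C/EBPa peaks, the order of the HNF4 string describes the grouping and is no finding. The HNF4 string was found 0.0107 times per kb with no factor peak, 0.0112 with a peak in 1 list, 0.0236 in 2 to 7 and 0.0248 in 8, and the ETS string 0.820, 0.730, 0.680 and 0.666 times. Loci with a peak in 1 list were thus close to the 3046 in the HNF4 string. Among the 3046, distance to the nearest factor peak made little difference to ETS, with 0.803 per kb within 1 kb of a factor peak, 0.819 at 1 to 10 kb and 0.831 with none within 10 kb. The 396 loci longer in all LD samples held 0.866 ETS strings per kb and the 53 longer in all CD samples 0.693.

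**Figure D5:**
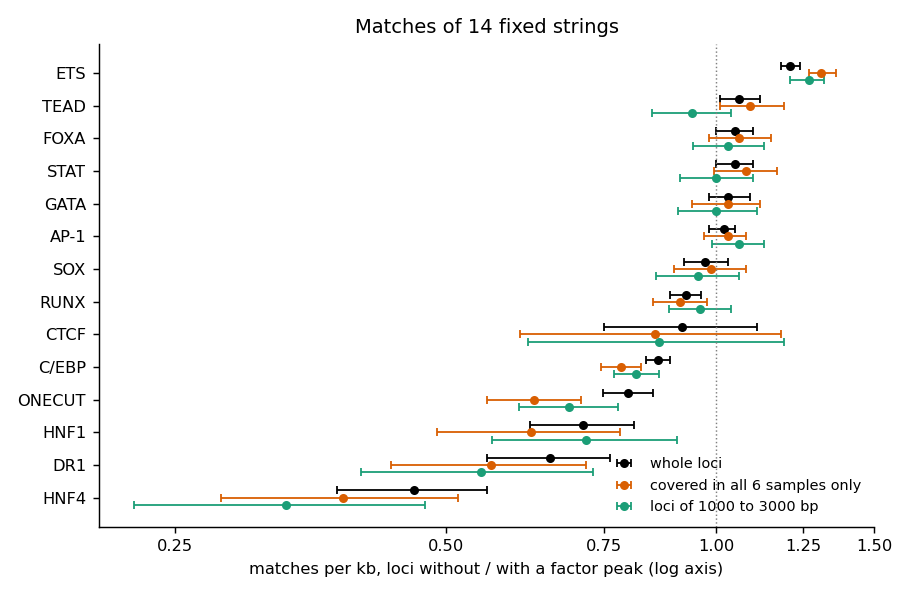
Matches per kb of 14 strings in loci without a factor peak divided by those in loci with one (x axis, log scale), for whole loci (black), the bases covered in all 6 samples (orange) and loci of 1000 to 3000 bp (green). Bars are exact 95% intervals for counting error; ETS lies at 1.21, 1.31 and 1.27 and HNF4 at 0.461, 0.385 and 0.332.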

How the data were processed

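Liver samples were grouped by the diet in their labels, and the loci, gene lists and strings were chosen with earlier results of these data known. For H3K27ac the authors called peaks per sample against input with SICER (window 200 bp, FDR 0.001), and the deposited lists hold positions only. For HNF4a and C/EBPa the authors called peaks per sample with HOMER, and the deposited signal is a depth-normalised tag count. For promoter capture Hi-C the authors pooled replicates and deposited interactions with a CHiCAGO score of at least 5; for Hi-C they deposited domain positions in bins of 10 kb. For RNA the authors aligned reads with STAR 2.5 and deposited featureCounts 1.5.0-p1 counts per gene, with TPM in a further table. All positions are mm9 (GENCODE annotation, NCBIM37). Columns of the TPM table that hold the authors' own DESeq2 comparison (fold changes and p-values) were not used.

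A locus was a merged stretch of H3K27ac intervals that share a base, and its covered length the bases under peaks in a sample. TSS were those of the counts table. RNA counts (31707963 to 39012699 per mouse over 25494 genes) were tested with edgeR 4.0.16 in R 4.3.3 (filterByExpr, TMM, quasi-likelihood, Benjamini-Hochberg over 13494 genes), and a call needed an adjusted p under 0.05 and a fold change over 1.2. On simulated counts for 13494 genes, 96 of 100 genes changed by a fold of 2 were recovered and 68 of 100 changed by 1.5. CPM used TMM-scaled library totals. Covered length was compared by exact permutation of the 6 samples, and shares carry exact Clopper-Pearson 95% intervals. Named genes were the 10 nearest to the most loci, the 10 contacted by the most loci on both diets, up to 4 per list, and the 10 strongest calls by fold change among contacted genes of at least 1 CPM whose mice did not overlap between diets. Loci described were the 5 broadest, the 5 with the most contacts and the 3 richest in AP-1 and ETS strings; the largest gains and losses, the longest loci near Ets1, Kdr and Maf and the loci of named genes were added after their values were seen. Alternatives were DESeq2 1.42.0, its size factors in edgeR, no filter on low counts, limma 3.58.1 on log2(TPM + 1), a replicate block, other merge gaps, TSS and factor distances, other contact rules, and each sample left out. Sequence and tables were handled in Python 3.11.15 with pandas 2.3.3, numpy 2.4.6 and scipy 1.17.1. No sequence of chromosome 18, which holds 95 of the loci, is printed. Some of the genes contacted by the described loci are not reported here.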

Additional observations from a re-analysis of the deposited data

Results flagged for a closer look

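In 130 groups of 5 mice, 4 had a mouse far from the other 4, where chance alone gives about 1 group in 20. Fam43a, the gene whose promoter met the most loci, was 8.38 CPM in CD replicate 1 and 5.78 to 6.48 CPM in the other CD mice. Tcf4, nearest to 7 loci, was 17.3 CPM in LD replicate 4 and 25.1 to 28.2 CPM in the other LD mice. The macrophage markers summed to 2383 TPM in LD replicate 2, and the next highest LD mouse had 1439 TPM. The bile duct markers summed to 156 TPM in LD replicate 5, and the next highest LD mouse had 87.5 TPM.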

How the results depend on the processing

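Counting only factor peaks found in 2 lists of the same factor gave 4763 loci, of which 27.1% were contacted on both diets, 604 were longer in all LD samples, 103 were longer in all CD samples and 316 contacted genes were called, with a covered length ratio of 1.15. Asking for an interaction score of at least 10 left 6.80% of loci contacted and 39 contacted genes called. Asking for the centre of the locus in the distal fragment gave 21.0%, and taking a contact in either list gave 297 contacted genes called. Among loci of 1000 to 3000 bp, 5 of 14 strings were denser than in loci with a factor peak, against 6 over whole loci, and the TEAD ratio was 0.940 against 1.06. Leaving out 1 H3K27ac sample, factor list or mouse at a time gave 3113 to 4063 loci, ratios of 1.12 to 1.22, 400 to 798 loci longer on LD, 54 to 200 longer on CD, 24.3 to 25.6% contacted, 381 to 555 nearest genes and 143 to 232 contacted genes called. The cause of these shifts was not tested, beyond the smaller number of samples that must then be apart. Removing loci within 5 kb of a GENCODE transcript start, an alternative chosen after seeing the data, left 2389 loci and a ratio of 1.16. Same replicate numbers did not pair the mice: correlations of same-numbered mice ran from -0.113 to 0.217 and 1 of 5 correlated best with its own number, and with a replicate block 439 nearest and 173 contacted genes were called. Over 795 values of 53 named genes, 771 kept their call or the lack of one, 23 gained a call (7 of these were Cebpa and 5 Elovl5), 1 lost it (Tmem2 without LD replicate 2) and 0 called values changed sign.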

Other observations

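Loci without a factor peak were also found near genes of other liver cells that differed between the diets. Irf8, a factor of the monocyte lineage, had 2 of them and no locus with a factor peak. They covered 3600, 2800 and 2000 bp on LD and 1800, 800 and 2400 bp on CD (chr8:123238801-123242400), and 2800, 3800 and 3000 bp on LD and 1200, 2600 and 3000 bp on CD (chr8:123273001-123277600). Irf8 RNA was 13.2, 19.1, 14, 11.9 and 11.4 CPM in the LD mice and 9.62, 9.45, 7.23, 8.61 and 9.23 CPM in the CD mice, so the RNA was apart between the diets and the loci overlapped (log2 fold change 0.66 ± 0.14 SE, adjusted p = 0.00394 by edgeR with Benjamini-Hochberg adjustment). Col1a2 and Sparc, genes of the extracellular matrix, each had 1 such locus and rose on LD, with log2 fold changes of 1.1 ± 0.15 and 0.74 ± 0.10 (SE, adjusted p = 2.44e-04 and 2.09e-04 by edgeR with Benjamini-Hochberg adjustment), and their loci covered 3400, 3800 and 2800 bp against 2200, 3400 and 2400 bp, and 3400, 3800 and 3800 bp against 3600, 2800 and 2600 bp, on LD and CD. Dcn and Lama1, the other stellate cell markers with such a locus, had loci that overlapped between the diets. Dcn rose on LD and Lama1 did not pass the test. Of the 22 macrophage markers 7 rose and 0 fell, Irf8 among them. Of the 20 stellate cell markers 7 rose and 1 fell, with Col1a2 and Sparc among the rises. Over all genes tested, 13.9% rose and 11.3% fell. The sums of both lists overlapped between the diets, and the part of these cell types was not tested.

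The promoter of Cebpa itself, which encodes C/EBPa, met 2 of the loci on both diets, at 38.1 and 84.7 kb near Cebpg, and 3 loci with a factor peak. Those 2 covered 2400, 3600 and 2800 bp on LD and 3400, 4000 and 3400 bp on CD, with overlap. Cebpa RNA was 328, 288, 334, 355 and 299 CPM on LD and 391, 419, 362, 363 and 384 CPM on CD, with no overlap between mice (log2 fold change -0.26 ± 0.08 SE, adjusted p = 0.0221 by edgeR with Benjamini-Hochberg adjustment), a difference that passed the adjusted p but not the fold that a call needed. Over its 15 alternatives the adjusted p ran from 0.00340 to 0.0626. It was called in 7 of them (DESeq2, DESeq2 size factors in edgeR, and without LD replicate 1, 3 or 4 or CD replicate 3 or 4), and its adjusted p missed the threshold in 4 (the replicate block, limma, and without LD replicate 2 or CD replicate 2).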
